A study of Mus musculus with 6 samples.

Results

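Cadherins and protocadherins are calcium-binding adhesion proteins of the cell surface. Here their mRNAs were compared between the mouse fibroblast line NIH-3T3, which comes from embryos, and a mutated derivative of it (MU). Of the 93 rows of the expression table whose symbol is Cdh with a number or Pcdh with a digit or the cluster letters a, b or g, 34 reached 1 TPM in 3 or more of the 6 libraries. TPM scales each library to the same total and corrects for transcript length. These 34 genes, of 55401 in the table and 14209 that passed the same level filter, are described here. The members were thus chosen by their level in these libraries. Of the 34, 4 reached 1 TPM in WT libraries only (Cdh5, Cdh11, Pcdh7 and Pcdh17) and 0 in MU libraries only. All 4 were under 1 TPM in every MU library, as were 1.39% of all tested genes. Such genes had to differ to be counted, so the share of members that passed a test is given as a description and supports nothing.

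The unmutated line (WT) gave 3 libraries of poly(A) RNA, and the derivative, labelled NIH-3T3-MU with the genotype Mutation, gave 3. Both were grown in the same serum-containing medium, and the treatment field reads Cultural for both. Which gene was mutated is not in the labels, nor whether MU comes from 1 clone. Nothing says that the replicates are separate cultures, so each p-value rests on a spread between samples that may be technical. With 1 line of each kind, the mutation and any other difference between the lines cannot be told apart. In bulk RNA, fewer cells with a transcript and less transcript per cell cannot be told apart either.

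Classical cadherins join neighbouring cells by binding the same cadherin on the other cell, and their tails hold beta-catenin and p120-catenin and, through alpha-catenin, actin. Mesenchymal cells are known for Cdh2 (N-cadherin) and Cdh11 (OB-cadherin), and epithelia for Cdh1 (E-cadherin). Clustered protocadherins lie in the alpha, beta and gamma arrays of mouse chromosome 18. In the alpha and gamma arrays each variable exon has its own promoter and is spliced to constant exons shared by the array, while beta genes stand alone. Their best-known role is in neurons, where different sets of isoforms let a cell tell itself from its neighbours. Nonclustered protocadherins of the delta1 and delta2 groups are single genes, and several act in cell sorting and movement.

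Differences below are MU minus WT on the log2(TPM + 1) scale. The libraries held 13944 to 14146 genes at 1 TPM or more. Deviations of a library from the gene means followed GC content with a Spearman correlation of 0.34 in WT replicate 2 and −0.26 in WT replicate 3, and of −0.13 to 0.17 in the other 4 (across genes, which are not replicates). Transcripts of mtDNA took 8.60% to 12.45% of TPM in WT and 13.9% to 15.3% in MU. Genes of some chromosomes were lower in MU as a whole. Leaving out the members, the median difference was −0.26 on chromosome 18, −0.31 on chromosome 8, −0.23 on chromosome X and −0.20 on chromosomes 3 and 5. Fibroblast markers summed to 8870 to 10153 TPM in WT and 11372 to 11902 TPM in MU. Of the 12, 11 were tested, 5 passed as higher and 1 as lower (limma, adjusted p under 0.05), beside 7.12% and 11.6% of all tested genes. The lower marker was Dcn (decorin), from 119 ± 19.7 to 8.13 ± 0.704 TPM. Lum was not tested and averaged 1.19 ± 0.446 TPM in WT and 0.0645 ± 0.0862 TPM in MU. Of 12 epithelial markers, 11 stayed under 1 TPM in every library, as did 9 of 10 endothelial, 8 of 10 skeletal muscle, 6 of 8 glial and 6 of 8 leukocyte markers. Skeletal muscle markers summed to 2.67 to 3.23 TPM in WT and 4.66 to 6.67 TPM in MU. Of these, 2 were tested and 1 passed as higher. Leukocyte markers summed to 2.82 to 3.61 TPM in WT and 4.47 to 7.36 TPM in MU, and the 1 tested did not pass.

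Of the 34 genes, 12 fell in MU, 0 rose and 22 did not pass (limma, adjusted p under 0.05 over all tested genes). Without adjustment, 2 had a p under 0.05 as higher and 15 as lower. Over all tested genes, 18.8% passed, 7.12% as higher and 11.6% as lower. These are 1012 higher and 1655 lower calls, against 1165 and 1230 when rescaled without mtDNA-encoded genes and 1262 and 1322 after quantile normalization. The genes that fell were Cdh5, Cdh11 and Cdh26 among cadherins, Pcdh7, Pcdh17 and Pcdh19 among nonclustered protocadherins, and Pcdhb5, Pcdhb7, Pcdhb9, Pcdhb18, Pcdhgb2 and Pcdhgc3 in the clusters. The median difference of the 34 was −0.27 on the log2(TPM + 1) scale, against −0.05 for all tested genes. Groups did not overlap in 21 members, 18 with every MU library below every WT library and 3 with every MU library above. Over all tested genes, 39.2% did not overlap, 23% with MU below and 16.1% with MU above.

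Of the 9 members that lie neither in the clusters nor on the same chromosome as them, 7 matched the RefSeq promoter table by symbol (GRCm38.p6). The 250 bases before the start are given, 5′ to 3′ on the gene's strand, for the 5 nonclustered protocadherins among them, since 2 of these genes were listed at 0 in MU, 1 fell and 2 did not pass. They are Pcdh7 at chr5:57717831-57718080 (+), Pcdh17 at chr14:84443313-84443562 (+), Pcdh19 at chrX:133688994-133689243 (−), Pcdh10 at chr3:45378148-45378397 (+) and Pcdh18 at chr3:49757317-49757566 (−). Capitals mark ATTGG, which is the CCAAT box read from the opposite strand.
Pcdh7: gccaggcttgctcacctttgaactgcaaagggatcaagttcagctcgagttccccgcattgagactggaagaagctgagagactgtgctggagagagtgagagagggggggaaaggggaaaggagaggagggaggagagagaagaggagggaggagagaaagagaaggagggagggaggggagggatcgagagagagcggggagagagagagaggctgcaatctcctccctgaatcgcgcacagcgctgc
Pcdh17: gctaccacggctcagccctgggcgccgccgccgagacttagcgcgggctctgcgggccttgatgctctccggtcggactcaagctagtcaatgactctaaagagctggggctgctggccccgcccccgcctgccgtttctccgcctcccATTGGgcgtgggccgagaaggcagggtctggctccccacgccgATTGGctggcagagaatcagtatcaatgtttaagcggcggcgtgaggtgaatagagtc
Pcdh19: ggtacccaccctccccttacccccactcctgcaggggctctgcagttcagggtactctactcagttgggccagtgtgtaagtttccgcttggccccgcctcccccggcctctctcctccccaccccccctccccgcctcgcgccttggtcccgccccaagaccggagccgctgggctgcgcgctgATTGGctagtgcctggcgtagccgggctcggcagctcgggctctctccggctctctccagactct
Pcdh10: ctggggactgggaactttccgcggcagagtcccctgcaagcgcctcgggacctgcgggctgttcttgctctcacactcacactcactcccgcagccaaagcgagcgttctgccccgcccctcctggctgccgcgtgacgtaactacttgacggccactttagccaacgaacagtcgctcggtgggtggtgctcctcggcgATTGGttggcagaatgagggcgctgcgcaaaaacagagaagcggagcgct
Pcdh18: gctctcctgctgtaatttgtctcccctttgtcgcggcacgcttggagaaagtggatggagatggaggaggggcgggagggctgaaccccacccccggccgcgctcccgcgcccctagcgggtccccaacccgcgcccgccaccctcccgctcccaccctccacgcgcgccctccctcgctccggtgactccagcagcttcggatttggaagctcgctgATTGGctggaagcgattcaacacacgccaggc
The 4 delta2 genes, Pcdh10, Pcdh17, Pcdh18 and Pcdh19, each held ATTGG within 65 bases of the start, beginning 50, 58, 32 and 65 bases before it. Pcdh17 held a further match that begins 101 bases before the start. In each of the 4, the match nearest the start was part of GATTGG. Anywhere in the 250 bases and on either strand, the shorter motif occurs in 33.8% of the 32851 promoters of the table. The longer one, of which it is a part, occurs in 14.6%. No share was computed for matches within 65 bases of the start. Among the windows not printed, that of Cdh26, which fell, held 1 match on either strand, beginning 124 bases before the start, and that of Cdh24 held 0. The window of Pcdh7, a delta1 gene, held no match. The GENCODE model starts Pcdh7 at 57717967, inside this window, so part of the window is not upstream of that start. For Pcdh18 the model ends at 49757325, just inside the window. Counts of CpG were 22 in Pcdh10, 21 in Pcdh17, 23 in Pcdh18, 16 in Pcdh19 and 7 in Pcdh7, against a median of 6 in all promoters of the table. Pcdh17, listed at 0 in MU, and Pcdh10 and Pcdh18, which did not pass, thus hold the same short motif and like numbers of CpG in this window. These matches were noticed after the values were seen and are a description of letters.

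Cdh2 was the most abundant cadherin in both lines, and its level did not differ beyond the spread. It had 46.1, 37.7 and 43.3 TPM in WT and 40.9, 41.7 and 38.3 TPM in MU. The groups overlap, and the difference was −0.07 on the log2(TPM + 1) scale (SE 0.10, limma adjusted p = 0.698). Its sign turned to 0.03 with quantile normalization and 0.02 with a correction for GC content and length. Cdh2 lies on chromosome 18 (16588877 to 16809246, GRCm38), and its 40 neighbouring genes had a median difference of −0.14 relative to all genes. It made up 74.0% ± 3.37 of the summed TPM of the 23 numbered cadherins in WT (mean ± SD, n = 3) and 78.5% ± 1.93 of it in MU, and the groups overlap. The other type I cadherins stayed under the level filter, Cdh1 at or below 0.531 TPM (E-cadherin).

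The type II cadherins Cdh11 and Cdh5 were low in WT and fell in MU. Cdh11 (chromosome 8, 102632095 to 102785642) was at 1.61, 1.10 and 2.01 TPM in WT, and every MU library lists it at 0 (limma adjusted p = 0.0107). Cdh5, the VE-cadherin of endothelial junctions (chromosome 8, 104101625 to 104144511), was at 1.33, 2.82 and 1.32 TPM in WT and at 0.0919, 0.114 and 0.1096 TPM in MU. All MU libraries lay below all WT libraries, WT replicate 2 stood above the other WT libraries, and the difference was −1.31 (SE 0.26, limma adjusted p = 0.0186). Both genes were counted as members through WT alone. Endothelial markers other than Cdh5 summed to 8.12 to 12.3 TPM in WT and 5.98 to 8.75 TPM in MU, mostly Egfl7, and their part in the result was not tested. Cdh11 passed under each alternative that tested it, and Cdh5 did not pass without any 1 MU library (adjusted p = 0.0626 to 0.0653, limma) or with a replicate block (0.058).

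Cdh24, another type II cadherin (chromosome 14, 54631231 to 54641364), went the other way without passing. It was at 6.18, 6.35 and 4.72 TPM in WT and at 8.36, 7.16 and 9.04 TPM in MU. The groups did not overlap, and the difference was 0.45 (SE 0.15, limma adjusted p = 0.0896). It passed as higher with the correction for GC content and length (adjusted p = 0.0187, limma), and the authors' deposited table gives it a log2 fold change of 0.524 with an adjusted p of 0.0257. Cdh26 (chromosome 2, 178430531 to 178487366), a cadherin outside the classical groups, fell. Its mRNA stood at 3.84, 4.35 and 3.88 TPM in WT and at 0.417, 1.87 and 1.31 TPM in MU. The WT libraries were close together, while MU replicate 1 was well below the other MU libraries. The difference was −1.25 (SE 0.28, limma adjusted p = 0.025), and it did not pass without any 1 WT library or without MU replicate 3 (adjusted p = 0.0522 to 0.0758, limma). Of the 23 numbered cadherin genes, the other 18 were not tested, and 6 were listed at 0 in all libraries.

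**Figure D1:**
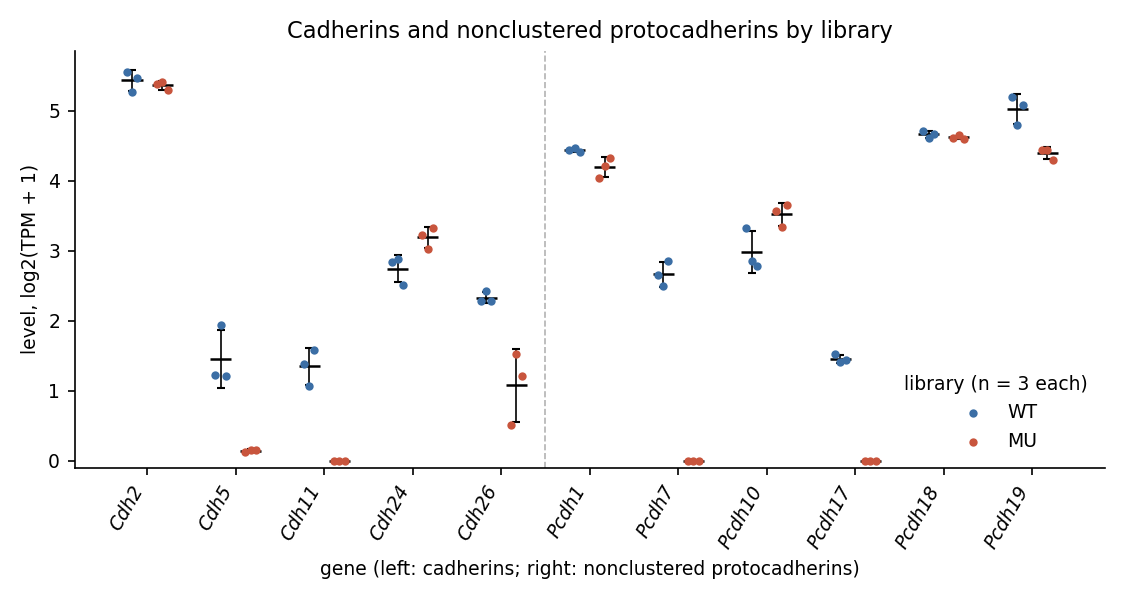
Level of each tested cadherin and nonclustered protocadherin in every library, on the log2(TPM + 1) scale. Points are libraries (3 WT, 3 MU), bars the mean and SD. Cdh11, Pcdh7 and Pcdh17 lie at 0 in all MU libraries, while Cdh2 and Pcdh18 overlap between the lines.

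Among delta1 protocadherins, Pcdh7 was listed at 0 in MU and Pcdh1 was slightly lower without passing. Pcdh7, whose protein binds phosphatase regulators through its tail (chromosome 5, 57717967 to 58133230), was at 5.27, 4.63 and 6.22 TPM in WT and at 0 in the 3 MU libraries (limma adjusted p = 0.000502). It passed under each alternative that tested it. A gene on the other strand covers 21.1% of its exon bases, and whether the counting used strand is unknown here, although the library kit keeps it. Pcdh1 (chromosome 18, 38185914 to 38212053), an adhesion protein known from airway epithelium, was at 20.8, 21.2 and 20.2 TPM in WT and at 15.4, 17.6 and 18.97 TPM in MU. Every MU library lay below every WT library, but the difference of −0.25 (SE 0.10) did not pass (limma adjusted p = 0.148), and its neighbours on chromosome 18 had a median of −0.22. Subtracting the median of its neighbours (position centring) left −0.03 for Pcdh1. Pcdh9 and Pcdh11x were listed at 0 throughout.

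The 4 tested delta2 protocadherins, whose promoters are printed above, followed separate courses. Pcdh17 (chromosome 14, 84443563 to 84539002), which recruits actin regulators at cell contacts, was at 1.87, 1.66 and 1.70 TPM in WT, with a listed 0 in all 3 MU libraries (limma adjusted p = 0.00485). It passed under each alternative that tested it. Pcdh19, whose human counterpart is mutated in an X-linked epilepsy (chromosome X, 133582860 to 133688987), fell. Its level was 35.7, 26.7 and 33.1 TPM in WT and 20.7, 20.8 and 18.6 TPM in MU, 1.59-fold lower by the means. The groups did not overlap, and WT replicate 2 was the lowest of the WT libraries. The difference was −0.64 (SE 0.13, limma adjusted p = 0.0181). The genes around Pcdh19 were lower by a median of −0.58 relative to all genes, and after position centring the difference was −0.05 (adjusted p = 0.817, limma). It also did not pass without WT replicate 1 or any 1 MU library (adjusted p = 0.0601 to 0.0739, limma).

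Pcdh18 and Pcdh10, neighbours on chromosome 3, did not fall. Pcdh18 (49743296 to 49757325) stood at 25.2, 23.4 and 24.4 TPM in WT and at 23.5, 24.1 and 23.2 TPM in MU, so the lines overlap. Its difference was −0.04 (SE 0.08, limma adjusted p = 0.758), with the sign turned by each other scaling (0.007999 to 0.0275). Pcdh10 (45378398 to 45435623), which links to the actin-regulating WAVE complex, was at 9.06, 6.22 and 5.87 TPM in WT and at 10.8, 9.10 and 11.6 TPM in MU. Every MU library lay above every WT library, with WT replicate 1 close to the lowest MU library. The difference of 0.53 (SE 0.18) did not pass (limma adjusted p = 0.0894). It passed as higher after position centring (adjusted p = 0.0401, limma) and without WT replicate 1 (0.0449), and the authors' deposited table gives an adjusted p of 0.0125. Pcdh8, the fifth delta2 gene, was listed at 0 in all libraries, and Pcdh12, Pcdh15 and Pcdh20 stayed at or below 0.112 TPM.

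Taking the levels in order, Pcdhgc3 came first in both lines and Cdh2 next. In WT, Pcdh19 (31.8 ± 4.63 TPM, mean ± SD, n = 3) stood above Pcdh18 (24.3 ± 0.940 TPM) and Pcdh1 (20.7 ± 0.494 TPM), with no overlap between neighbours in this order. In MU, Pcdh18 (23.6 ± 0.461 TPM) stood above Pcdh19 (20.01 ± 1.23 TPM), and Pcdh1 (17.3 ± 1.77 TPM) overlapped with Pcdh19. The remaining tested members were at or below 10.5 TPM on average in either line.

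All 14 alpha rows stayed below the level filter. Their sum was 0.499 to 0.875 TPM in WT and 1.37 to 1.63 TPM in MU, with Pcdha12 the highest at 0.838, 0.957 and 0.998 TPM in MU. Pcdha12 therefore lay just outside the filter, as did Cdh23 at 0.796, 0.407 and 1.59 TPM in WT. Just inside were Pcdhgb7, with 1.31, 0.905 and 1.01 TPM in WT and 0.757, 1.004 and 0.993 TPM in MU, and Pcdhb3, with 1.64, 1.16 and 1.56 TPM in WT and 1.01, 0.989 and 0.967 TPM in MU. Alpha and gamma levels are uncertain on the per-length scale. In the annotation, 53.5% of the exon bases of Pcdha1 lie in exons that other alpha genes also carry. Of the stretches of 50 bases of Pcdhgc3 transcripts, 65.2% occur in transcripts of other genes, read from either strand. The treatment of reads from shared exons is unknown here. For the 17 tested beta genes this share was 1.89% to 11.3%.

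Some beta genes fell while others beside them did not pass. Of 22, 17 were tested, 4 fell, 0 rose and 13 did not pass, with a median difference of −0.28. Over all tested genes 11.6% fell, and over those of chromosome 18 25.1%, so 4 of 17 is near the share of the chromosome. Every MU library lay below every WT library in 9 of the 17, beside 23% of all tested genes, and above in 0, beside 16.1%. These shares were not computed for chromosome 18 alone. Of its tested genes outside the members, 78.4% had a lower mean in MU, so the 9 are not read as particular to beta genes. The 9 were the 4 that fell and Pcdhb2, Pcdhb3, Pcdhb4, Pcdhb20 and Pcdhb22, which did not pass. Pcdhb7 (chromosome 18, 37341702 to 37345202) was the most abundant in WT, at 9.18, 8.38 and 10.1 TPM, and stood at 4.11, 4.02 and 4.19 TPM in MU. The fall was 2.24-fold by the means, or −0.996 on the log2(TPM + 1) scale (SE 0.12, limma adjusted p = 0.00337). Pcdhb18 (37489465 to 37494505) went from 5.93, 4.17 and 6.05 TPM to 1.91, 2.34 and 1.80 TPM, by −1.07 (SE 0.18, limma adjusted p = 0.0104). Its lowest WT library was well above its highest MU library. Pcdhb9 (37400855 to 37403909) went from 5.19, 4.19 and 6.09 TPM to 1.87, 2.24 and 2.54 TPM, by −0.93 (SE 0.18, limma adjusted p = 0.0148). Pcdhb5 (37320381 to 37323915) went from 5.12, 5.09 and 5.71 TPM to 3.72, 3.44 and 3.33 TPM, by −0.49 (SE 0.13, limma adjusted p = 0.0421).

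Several beta genes between and beside these overlapped between the lines. Pcdhb8 lies between Pcdhb7 and Pcdhb9 and was at 1.68, 1.13 and 1.85 TPM in WT and 2.46, 2.24 and 1.31 TPM in MU, with overlapping groups. Pcdhb17 lies beside Pcdhb18 and was at 6.03, 5.22 and 6.07 TPM in WT and 5.50, 5.18 and 5.00 TPM in MU, also overlapping (limma adjusted p = 0.549). Pcdhb16, next to it, averaged 6.31 ± 1.505 TPM in WT and 6.37 ± 0.327 TPM in MU. Among abundant beta genes that did not pass, Pcdhb20 was at 7.95, 7 and 9.33 TPM in WT and 5.58, 6.23 and 4.96 TPM in MU (limma adjusted p = 0.0751). It passed as lower without WT replicate 2 (adjusted p = 0.0463, limma) and with the GC and length correction (0.044). Pcdhb22 averaged 7.95 ± 1.70 TPM in WT and 5.82 ± 1.02 TPM in MU, and Pcdhb4 went from 2.10 ± 0.259 to 1.10 ± 0.196 TPM (limma adjusted p = 0.0774). The difference of Pcdhb4, −0.56 (SE 0.18), was no smaller than the −0.49 of Pcdhb5 beside it, which passed. The other tested beta genes differed by −0.30 to 0.12 and did not pass. Pcdhb1 was listed at 0 throughout, and Pcdhb10 to Pcdhb13, a run in the middle of the array, stayed at or below 0.538 TPM.

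**Figure D2:**
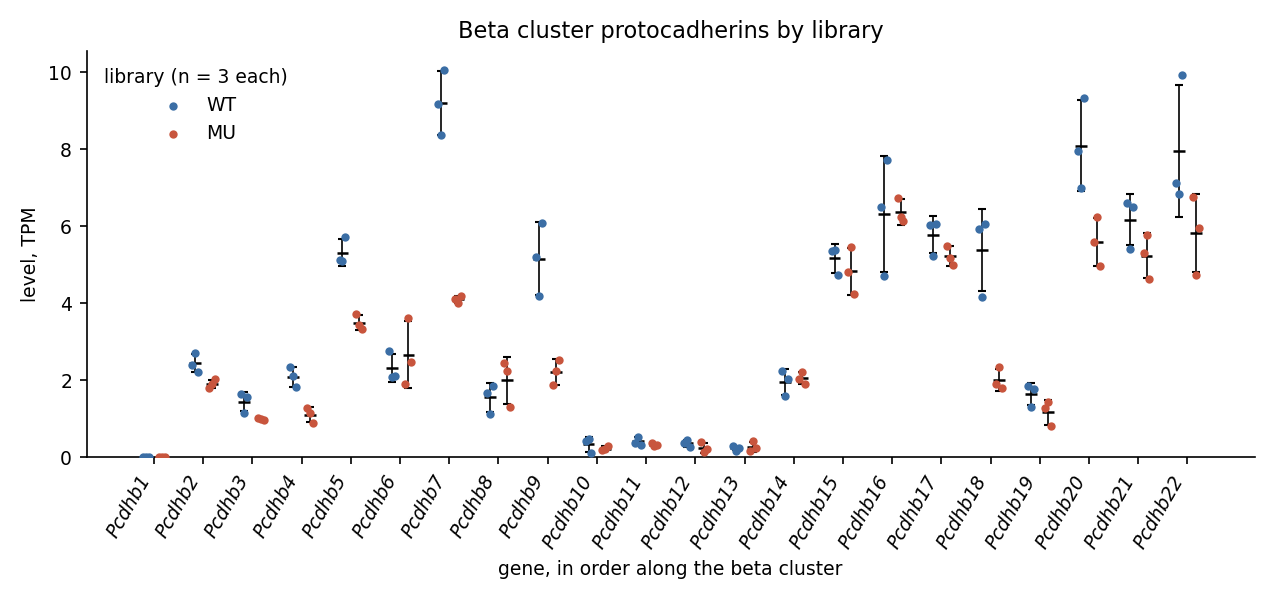
Level in TPM of the 22 beta genes in their order along chromosome 18. Points are libraries (3 WT, 3 MU), bars the mean and SD. Pcdhb7, Pcdhb9 and Pcdhb18 stand apart between the lines, while Pcdhb8, Pcdhb14, Pcdhb15, Pcdhb16 and Pcdhb17 overlap. Pcdhb2, Pcdhb3, Pcdhb4, Pcdhb5, Pcdhb20 and Pcdhb22 are also lower in every MU library.

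A share of the array sum stays the same when a whole library is multiplied by a single factor. It can change under quantile normalization or the GC and length correction. The beta sum was 81.4, 70.1 and 86.5 TPM in WT and 59.2, 60.3 and 54.2 TPM in MU, 73.0% of WT by the means. Pcdhb7 made up 11.3%, 11.9% and 11.6% of this sum in WT and 6.94%, 6.66% and 7.72% in MU. Pcdhb18 made up 6.74% ± 0.706 and 3.48% ± 0.350, and Pcdhb9 6.46% ± 0.535 and 3.85% ± 0.765 (mean ± SD, n = 3). For these 3 genes the shares of the lines did not overlap, MU being lower. The share of Pcdhb5 was 6.72% ± 0.496 in WT and 6.05% ± 0.301 in MU, with overlap. Shares of 6 genes were higher in every MU library, among them Pcdhb16, from 7.88% ± 1.10 to 11.02% ± 0.591. Shares of a sum are tied together, so a fall of some raises others. The 4 genes that fell made up 31.5% ± 0.620 of the sum in WT and 20.5% ± 1.21 in MU. They were picked because they fell in these same libraries, so their lower joint share largely follows from that choice and supports nothing. None of the 6 passed as higher in level, and Pcdhb16 averaged 6.31 TPM in WT and 6.37 TPM in MU. Without Pcdhb5, Pcdhb7, Pcdhb9 and Pcdhb18, left out because they fell, the beta sum was 48.3 to 58.6 TPM in WT and 42.4 to 48.2 TPM in MU.

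The gamma array was dominated by Pcdhgc3, which fell. Pcdhgc3, one of the C-type genes at the end of the array (chromosome 18, 37806364 to 37841873), was at 149.5, 161 and 134 TPM in WT and at 82.8, 83.9 and 88.9 TPM in MU. The groups were far apart, and the level was 1.74-fold lower in MU by the means (difference −0.79, SE 0.09, limma adjusted p = 0.00336). It made up 90.6% ± 0.788 of the gamma sum in WT and 89.1% ± 0.646 in MU. Since the constant exons belong to every gamma gene, the part of other isoforms in this level was not tested. Exons of other genes on the same strand cover 38.5% of the exon bases of Pcdhgc3, and exons on the other strand cover 28.4%. Whether the counting used strand is unknown here, so the part of the other strand in this level was not tested either. Pcdhgb2 (37689828 to 37841873) showed the largest fall of the clustered genes tested. It stood at 7.19, 5.72 and 5.64 TPM in WT and at 1.35, 1.40 and 1.57 TPM in MU, 4.30-fold lower by the means (difference −1.55, SE 0.15, limma adjusted p = 0.00179). Its share of the gamma sum without Pcdhgc3 was 42.5%, 37.9% and 40.6% in WT and 13.5%, 12.7% and 15.3% in MU.

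None of the other 4 tested gamma genes passed. Without Pcdhgc3 and Pcdhgb2, the remaining 20 rows summed to 9.71, 9.39 and 8.25 TPM in WT and to 8.66, 9.60 and 8.65 TPM in MU, overlapping. The 2 genes were left out because they fell, so the overlap of the rest follows in part from that choice. Of the remaining rows, 16 were below the level filter. Pcdhgb8, annotated as a polymorphic pseudogene, was at 1.56, 1.35 and 1.30 TPM in WT and 2.26, 1.91 and 1.73 TPM in MU. Its groups did not overlap, and its difference of 0.30 (SE 0.17) did not pass (limma adjusted p = 0.269). Pcdhga1 averaged 1.33 ± 0.104 TPM in WT and 1.47 ± 0.342 TPM in MU, and Pcdhga3 1.31 ± 0.351 and 1.36 ± 0.254 TPM, both overlapping. Pcdhgb2 lies between Pcdhga4 and Pcdhga5, which were below the level filter, so its immediate neighbours give no test. Neuronal markers, given here because clustered protocadherins are best known from neurons, summed to 6.58 to 7.92 TPM in WT and 14.4 to 19.1 TPM in MU. Most of the higher sum in MU came from Map2, and Rbfox3 stood at 2.04 TPM in MU replicate 1 and at 0 in all other libraries. Of these 10 markers, 3 were tested, 1 rose and 1 fell, beside 7.12% higher and 11.6% lower over all tested genes. Map2, a microtubule protein, rose from 2.54 ± 0.540 to 13.5 ± 1.41 TPM, while Elavl4, an RNA-binding protein, had 1.83, 1.38 and 2.95 TPM in WT and a listed 0 in each MU library (limma adjusted p = 0.00865). Elavl4 passed the level filter through WT alone. It had to be lower in MU to be tested, so its call supports nothing. The part of these markers in the gamma results was not tested.

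**Figure D3:**
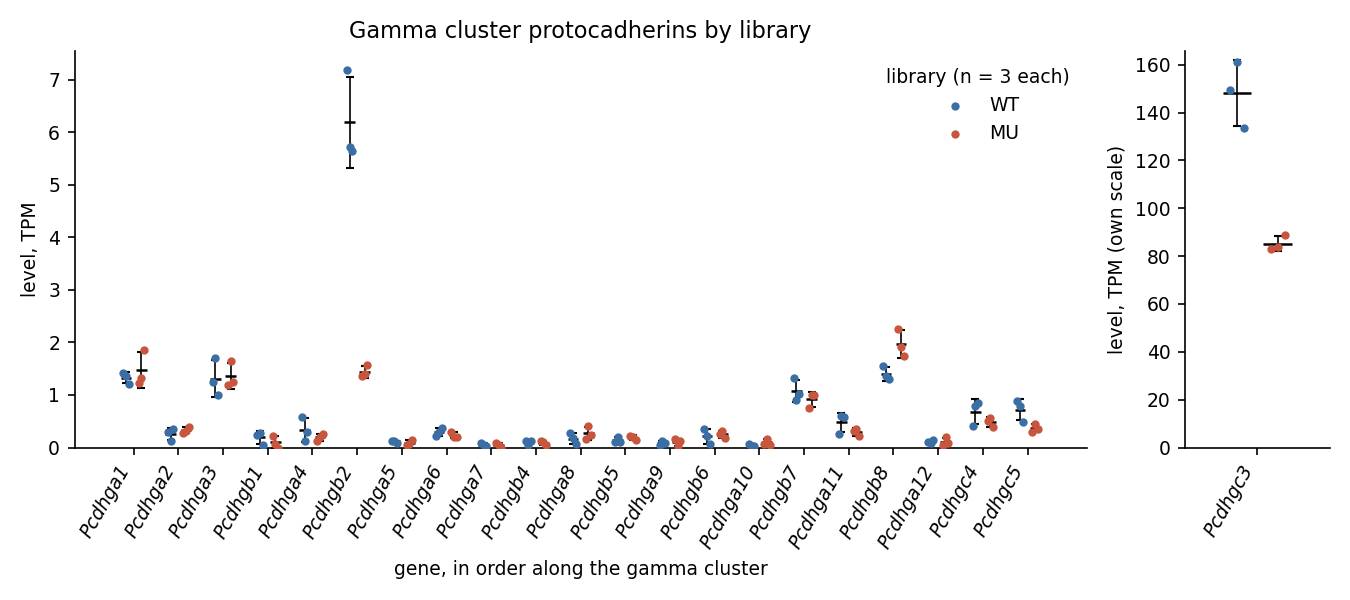
Level in TPM of the 22 gamma genes in their order along chromosome 18, with Pcdhgc3 at the right on its own scale. Points are libraries (3 WT, 3 MU), bars the mean and SD. Pcdhgb2 and Pcdhgc3 are lower in every MU library, while Pcdhgb8 is somewhat higher.

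The clusters lie among genes that were lower in MU, so the falls were also measured against their surroundings. Of the 367 tested genes of chromosome 18, members included, 25.1% fell and 2.45% rose. The 40 nearest tested protein-coding genes around each clustered gene, members left out, had a median difference of −0.22 relative to all genes. With this subtracted, Pcdhb7 stood at −0.77 (limma adjusted p = 0.00836), Pcdhb18 at −0.85 (0.0247), Pcdhb9 at −0.71 (0.0404), Pcdhgb2 at −1.33 (0.00302) and Pcdhgc3 at −0.56 (0.0119), and these 5 passed. Pcdhb5 stood at −0.26 and did not pass (adjusted p = 0.211, limma). Over all members, 10 passed as lower and 1 as higher (Pcdh10) after this step, against 8.62% and 6.33% of all tested genes. Pcdhb5 also did not pass with 2 other scalings (adjusted p = 0.0527 and 0.0711, limma), without WT replicate 1 or 3, or without any 1 MU library (0.0933 to 0.135), and Pcdhb9 did not pass without WT replicate 1, MU replicate 1 or MU replicate 2 (0.0554 to 0.061).

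**Figure D4:**
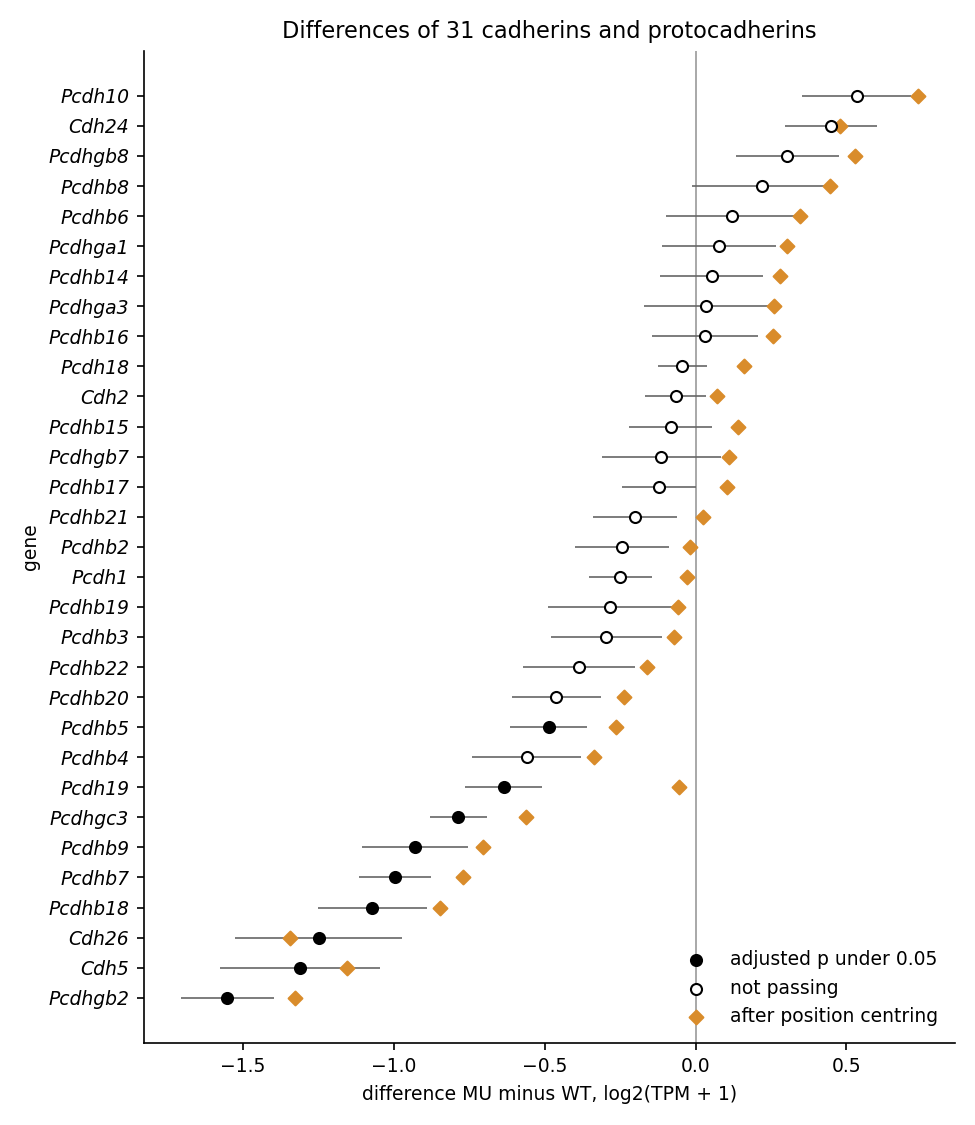
Difference of MU from WT on the log2(TPM + 1) scale for the 31 members not listed at 0 in MU, sorted. Circles show the difference with its SE (filled where the adjusted p is under 0.05), and diamonds the value after subtracting the median of neighbouring genes. Pcdh19 moves from −0.64 to −0.05, while Pcdhgb2, Cdh5 and Cdh26 stay below −1.

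Over all tested genes, 0.225% were listed at 0 in every MU library and 0.148% in every WT library. Cdh11, Pcdh7 and Pcdh17, on different chromosomes, were listed at 0 in every MU library and were counted as members through WT alone. Their number beside that share therefore supports nothing. A 0 in a table without counts is no measure of absence. Of the 34 members, 33 had the same sign of change in the authors' deposited table as here. There, 14 were lower and 2 higher at an adjusted p under 0.05, and all 12 that fell here were among the 14. The further calls there were Pcdhb4 and Pcdhb20 as lower and Cdh24 and Pcdh10 as higher.

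Among catenins and their relatives, Jup, Vcl and Ctnnal1 rose and Pkp4 fell. Of 14 catenin and plakophilin genes, vinculin included, 10 were tested, 3 rose and 1 fell, beside 7.12% and 11.6% of all tested genes, and their median difference was 0.23. Jup, which encodes plakoglobin and can replace beta-catenin at junctions, rose from 17.7, 20.6 and 16.9 TPM to 40.7, 38.9 and 42.3 TPM (difference 1.11, SE 0.10, limma adjusted p = 0.00142). Vcl, which encodes the actin-binding protein vinculin, rose from 146 ± 4.74 to 231 ± 4.60 TPM and Ctnnal1, alpha-catulin, from 24.0 ± 1.01 to 34.3 ± 1.64 TPM. The catenins of the core complex did not pass. Ctnna1 (alpha-catenin) differed by 0.04 (limma adjusted p = 0.821), Ctnnb1 (beta-catenin) by −0.18 (0.334) and Ctnnd1 (p120-catenin) by 0.22 (0.289). Pkp4, an armadillo protein of junctions, fell from 50.03 ± 2.12 to 34.6 ± 3.28 TPM. Ctnnal1 did not pass without MU replicate 1 or 2 (limma adjusted p = 0.0586 and 0.0628), nor Pkp4 without WT replicate 1, MU replicate 1 or MU replicate 2 (0.0513 to 0.0613).

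Other cell contact genes fell or did not pass. Of 23 further members of the cadherin superfamily 3 were tested, 1 fell and 0 rose, beside 11.6% lower and 7.12% higher over all tested genes. Fat4, a giant cadherin that binds Dachsous across cells, had 2.73, 2.55 and 2.84 TPM in WT and a listed 0 in each MU library (limma adjusted p = 0.00167). Fat4 passed the level filter through WT alone. It had to be lower in MU to be tested, so its call supports nothing. Fat1 did not pass (limma adjusted p = 0.136) but passed as higher after position centring (0.0413). Of 15 nectins and junction scaffolds 10 were tested, 4 fell and 0 rose, beside 11.6% lower and 7.12% higher over all tested genes. Jam3, a junctional adhesion molecule, fell from 7.52, 6.19 and 8.51 TPM to 2.52, 1.86 and 2.13 TPM (limma adjusted p = 0.00321). The others were Pard3, a polarity scaffold (28.1 ± 4.39 to 18.5 ± 0.819 TPM), Pvr, a nectin-like receptor (68.7 ± 3.45 to 53.0 ± 3.40 TPM), and Gja1, which encodes a gap junction connexin (77.3 ± 7.02 to 56.0 ± 5.47 TPM). Pard3 did not pass without WT replicate 1, WT replicate 2 or any 1 MU library (limma adjusted p = 0.052 to 0.102) or after position centring (0.463). Pvr did not pass without WT replicate 1 or any 1 MU library (limma adjusted p = 0.0628 to 0.125), after position centring (0.0896) or with any of the 3 other scalings (0.0523 to 0.0859). Gja1 did not pass without WT replicate 1, WT replicate 3 or any 1 MU library (limma adjusted p = 0.0649 to 0.115), rescaled without mtDNA-encoded genes (0.0745) or after quantile normalization (0.0616).

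Of the genes that process cadherins or regulate their transcription, 1 rose and 5 fell, against 7.12% higher and 11.6% lower over all tested genes. Of 11 processing genes 9 were tested and 1 fell, Aph1a of the gamma-secretase complex (101 ± 12.5 to 68.7 ± 6.36 TPM). Of 6 O-mannosylation genes 4 were tested and 1 fell, Pomt2 (13.99 ± 1.03 to 10.1 ± 0.925 TPM). Among 15 transcription factors that act on cadherin genes in epithelial-mesenchymal transition, 9 were tested, 1 rose and 3 fell. Snai2 rose from 5.27 ± 0.310 to 8.41 ± 1.02 TPM. Twist2 fell from 76.3 ± 1.94 to 46.9 ± 3.04 TPM, Zeb2 from 21.3 ± 1.68 to 13.5 ± 1.36 TPM and Klf4 from 45.1 ± 14.5 to 23.3 ± 2.54 TPM. Twist2 passed in every fit tried, whereas Aph1a and Klf4 did not pass without WT replicate 1 or any 1 MU library (limma adjusted p = 0.0537 to 0.0956 and 0.0776 to 0.114), nor Pomt2 without any 1 library (0.0546 to 0.147). Their calls also ended with other scalings, Aph1a and Klf4 with median-of-ratios scaling and quantile normalization (limma adjusted p = 0.0508 to 0.0749 and 0.0553 to 0.0561) and Pomt2 with all 3 (0.0537 to 0.0775), and Klf4 did not pass after position centring (0.0528). Snai2 did not pass without WT replicate 1, WT replicate 3 or any 1 MU library (limma adjusted p = 0.0506 to 0.103), nor Zeb2 without WT replicate 1, MU replicate 2 or MU replicate 3 (0.0522 to 0.0583).

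All 20 listed regulators of the protocadherin clusters were tested, 2 fell and 0 rose, beside 11.6% and 7.12% of all tested genes, with a median difference of −0.10. Ctcf, whose protein joins cluster promoters to their enhancers, was at 76.7, 64.9 and 69.0 TPM in WT and 50.6, 51.5 and 53.8 TPM in MU (limma adjusted p = 0.0220). Smc1a, a cohesin subunit, was at 74.7, 80.1 and 63.4 TPM in WT and 45.1, 49.0 and 53.7 TPM in MU (adjusted p = 0.0219, limma). Neither passed without WT replicate 1 or any 1 MU library (limma adjusted p = 0.0629 to 0.095 for Ctcf and 0.0509 to 0.0876 for Smc1a) or after position centring (0.0686 and 0.963), and Smc1a stood at 0.01 after that step. Setdb1, a histone methyltransferase, averaged 36.7 ± 1.89 TPM in WT against 44.9 ± 1.42 TPM in MU and did not pass (limma adjusted p = 0.0556), but passed as higher after position centring (0.0151), so that under that step the list had 0 lower and 1 higher. Of 13 signalling partners of protocadherins 12 were tested, 2 rose and 0 fell, beside 7.12% and 11.6% of all tested genes. Ryk, a Wnt receptor, rose from 102 ± 9.95 to 152 ± 2.65 TPM and Cyfip2, of the WAVE complex, from 0.173 ± 0.0660 to 1.16 ± 0.0791 TPM. Cyfip2 reached 1 TPM in MU libraries only. It had to differ to be tested, so its call and its place in the count support nothing. For Ryk the call was lost without MU replicate 2 (adjusted p = 0.0513, limma), nor Cyfip2 without WT replicate 1, WT replicate 3 or any 1 MU library (0.0584 to 0.106) or after position centring (0.0719).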

How the data were processed

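Poly(A) RNA of 3 WT and 3 MU libraries was sequenced. The submitters' processing notes name HISAT2 2.05.0, featureCounts 1.5.0-p3, FastQC 0.11.4, DESeq2 1.20.0 and the build mm10, without a role for each. Strand setting, annotation and the making of TPM are unknown here. The authors deposited log2(TPM + 1) values per gene and library, and a table of group mean TPM, log2 fold changes, p-values and adjusted p-values. TPM keeps no depth, so depth is unknown and no counting interval was computed.

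Values were returned to TPM, and genes reaching 1 TPM in 3 or more of the 6 libraries were tested as log2(TPM + 1) with limma 3.58.1 in R 4.3.3 (intensity trend, two-sided, no covariate, Benjamini-Hochberg over 14209 genes). A difference on this scale understates changes of low genes. The code was tested on simulated data. Positions, lengths and GC come from GENCODE M21 (55141 of 55401 genes matched). Named were all cadherins and nonclustered protocadherins tested, clustered ones that passed or were most abundant, members at the level threshold, and in each partner list up to 4 passing genes. Other clustered members and Ctnna1, Ctnnb1, Ctnnd1, Fat1, Setdb1, Map2, Elavl4, Egfl7, Dcn and Lum were added after their values were seen. The members and lists were chosen with earlier results of these data known. Alternatives were a replicate block, other scalings, pseudocounts (0.1, 5) and filters, limma without trend or robust, a loess correction for GC and length (span 0.3), subtraction from MU of the median difference of up to 20 protein-coding neighbours on each side, relative to all genes (position centring), and leaving out each library.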

Additional observations from a re-analysis of the deposited data

How the results depend on the processing

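Of the 12 members that fell, 6 passed under every alternative in which they were tested (Cdh11, Pcdh7, Pcdh17, Pcdhb7, Pcdhgb2 and Pcdhgc3). Members passing as lower numbered 12. They numbered 6 with the replicate block, 5 with a TPM minimum of 5 (fewer genes tested) and 8 to 12 without 1 library, 8 of them without WT replicate 1 or any 1 MU library. Members passing as higher numbered 0, and 1 with the GC and length correction (Cdh24), with position centring and without WT replicate 1 (both Pcdh10), so 0 to 1 over the libraries left out. The calls over all genes, 1012 higher and 1655 lower, were 456 and 637 with the replicate block. They were 1571 higher with the GC and length correction, 1079 lower with the replicate block and that correction, and 427 to 1153 higher and 644 to 2238 lower without 1 library, lowest without MU replicate 2. Apart from the smaller table under the TPM minimum and the fewer samples, the cause was not tested.

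Same-numbered libraries deviated with correlations of 0.0495, 0.0154 and −0.0744, against −0.137 to 0.12 for the other pairs. The numbers thus gave no sign of pairing, but with 3 libraries per line these correlations cannot exclude shared handling. The replicate block ended the calls of Cdh5, Cdh26, Pcdh19, Pcdhb5, Pcdhb9 and Pcdhb18 (adjusted p = 0.0507 to 0.138, limma).

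The sign turned, with no call in either fit, for Cdh2 (0.0253 after quantile normalization, 0.0219 with the GC and length correction, with or without the block, and 0.0706 position centred). It turned for Pcdh18 (0.0192 rescaled without mtDNA-encoded genes, 0.007999 by median-of-ratios, 0.0275 after quantile normalization, 0.0402 with the GC and length correction, with or without the block, and 0.160 position centred). Position centring gave 0.142 for Pcdhb15, 0.104 for Pcdhb17, 0.0238 for Pcdhb21, 0.111 for Pcdhgb7 and, ending a call, 0.0105 for Smc1a. Without 1 library, Pcdhb6 ranged from −0.0588 to 0.275, Pcdhb14 from −0.0383 to 0.124, Pcdhb16 from −0.135 to 0.169, Pcdhga1 from −0.033 to 0.1485 and Pcdhga3 from −0.0633 to 0.150. TPM holds no depth, so no limit of detection can be given, and members near 1 TPM are the least certain.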
